A study of Mus musculus with 16 samples.

Results

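In early anagen hair follicle stem cells (EA-HFSCs), 2019 of 42277 H3K9me3 peaks, or 4.78% (95% Wilson interval 4.58–4.98%), overlapped both an H3K4me3 peak and an H3K27me3 peak by at least 1 bp. These 2019 regions, called 3-mark sites here, were chosen by their peaks in the 3 EA-HFSC lists, so that their marks in EA-HFSCs are the selection and not a result. They made up a small share of the 219698 peaks in the 12 lists of the study. The remaining EA-HFSC H3K9me3 peaks overlapped H3K4me3 only (8343 peaks), H3K27me3 only (10007 peaks) or neither mark (21908 peaks).

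The cells came from the skin of wild-type mice of mixed CD1 and FVB strain that the labels give as male, whereas the study used both sexes for most of its work, with many animals pooled for each sort. EA-HFSCs were sorted on PD22–25, in early anagen, as bulge cells positive for CD34 and α6-integrin, and LC-HFSCs likewise on PD38–44, in late catagen. The CD34-negative, α6-integrin-positive cells of each stage, mostly epidermis and lower outer root sheath, are called non-EA-HFSCs or, at the later stage, non-LC-HFSCs. Each population had 1 pooled peak list per mark, called against its own IgG library, so no comparison below has a replicate check or a test, and intervals cover counting error only. H3K9me3 was precipitated with antibodies from 2 suppliers, and which list rests on which is not given in the sources used here.

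H3K4me3 marks the starts of genes that are active or ready for activation, H3K27me3 is laid down by Polycomb complexes at silent developmental genes, and H3K9me3 is the mark of heterochromatin and of silenced repeats. The overlap of H3K4me3 with H3K27me3 is known as bivalent chromatin and is typical of CpG-rich starts of lineage regulators in stem cells. H3K9me3 at the same places is less usual. A peak overlap in a pool of cells cannot tell whether the marks sit on the same nucleosome, the same allele or different cells.

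H3K4me3 at gene starts was read as a check of the sorts. In EA-HFSCs the mark was found at all 4 basal keratinocyte markers and 7 of 7 bulge markers, and also at 2 of 5 markers of differentiated epidermis, 3 of 5 of melanocytes, 1 of 3 of endothelium and 4 of 4 of fibroblasts and dermal papilla. None of the 4 leukocyte markers had one in any population, and no other count differed by more than 2 markers between populations. A total of 4 markers of other cell types carried a 3-mark site, namely Lor (cornified envelope), Kdr (endothelium), Pdgfra and Twist1 (both fibroblasts), which are named because they were few. The part that other cells in the sort have in the results was not tested.

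The sequence of the sites was read from mm9, with 1 stretch shown for each of 3 fates in LC-HFSCs and 1 for contrast. Each stretch from a 3-mark site is the 200 bp with the most CpGs that lie under all 3 EA-HFSC marks and outside annotated exons, taken from the site with the highest H3K9me3 score (10 times the p-value's negative log10) of its kind among the chromosomes used for display, on the plus strand. Capitals mark each CpG. Marks are given here at the site itself. The Sim1 site (chr10:50614085-50614284, upstream of the gene, 27 CpGs) had no mark left in LC-HFSCs. The Nkx2-1 site (chr12:57635464-57635663, intron, 23 CpGs) had H3K27me3 alone, and the Dbx1 site (chr7:56890537-56890736, intron, 15 CpGs) H3K4me3 and H3K27me3. The site with the highest score of those left with H3K27me3 alone, at Onecut2, is not among the displayed chromosomes. The contrast (chr2:92394088-92394287, intergenic, nearest gene Chst1, 5 CpGs) comes from an H3K9me3 peak of 1062 bp without either other mark in any population. It was chosen among 350 such peaks that scored at least the median of the 3-mark sites. Its CpG ratio, 0.154, lay closest to the median of all H3K9me3 peaks with neither other mark in EA-HFSCs.
Sim1: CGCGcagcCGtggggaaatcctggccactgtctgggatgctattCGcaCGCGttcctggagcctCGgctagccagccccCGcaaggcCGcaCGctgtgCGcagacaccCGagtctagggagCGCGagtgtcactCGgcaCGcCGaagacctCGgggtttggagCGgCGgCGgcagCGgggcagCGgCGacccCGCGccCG
Nkx2-1: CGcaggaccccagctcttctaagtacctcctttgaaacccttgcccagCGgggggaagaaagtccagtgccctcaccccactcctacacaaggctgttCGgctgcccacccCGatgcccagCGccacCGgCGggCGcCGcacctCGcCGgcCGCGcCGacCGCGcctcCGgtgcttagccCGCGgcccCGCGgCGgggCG
Dbx1: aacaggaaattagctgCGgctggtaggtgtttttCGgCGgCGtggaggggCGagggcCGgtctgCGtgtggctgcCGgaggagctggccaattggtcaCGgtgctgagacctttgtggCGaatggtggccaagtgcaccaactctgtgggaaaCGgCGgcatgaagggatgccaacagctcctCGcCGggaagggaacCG
Chst1 contrast: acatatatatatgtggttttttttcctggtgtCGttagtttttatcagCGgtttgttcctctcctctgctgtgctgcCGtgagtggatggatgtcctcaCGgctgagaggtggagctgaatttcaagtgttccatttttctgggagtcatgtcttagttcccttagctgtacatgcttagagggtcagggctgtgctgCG

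The capitals are dense in the first 3 stretches and sparse in the last, and the same held for the sets as a whole. The ratio of observed to expected CpGs, which is near 1 where CpGs have not been depleted, had a median of 0.54 over the 2017 3-mark sites on placed chromosomes (quartiles 0.42 and 0.66), against 0.191 for the genome. It was 0.69 for H3K9me3 peaks that overlapped H3K4me3 only, 0.20 for those that overlapped H3K27me3 only and 0.15 for those that overlapped neither. The 3-mark sites had a median GC content of 54.2%, with 41.8% in the genome. In a 1000 bp window around the middle, 37% of the sites (35.0–39.2%) reached both a GC content of 50% and a CpG ratio of 0.6, the usual marks of a CpG island, whereas 72.6% of the peaks with H3K4me3 only and 2.08% of those with H3K27me3 only did so. By their DNA the 3-mark sites thus lay between the sets with 1 other mark.

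The sites had wider and higher-scoring H3K9me3 peaks than most of the list. Their median width was 1377 bp (quartiles 889.5 and 2246.5 bp) and their median score 101 (quartiles 61.5 and 192), against 557 bp and 49.0 for H3K9me3 peaks with neither other mark. Peaks with H3K4me3 only came closest, with 1222 bp and 73.2, and those with H3K27me3 only had 764 bp and 60.4. They made up 54 of the 100 and 406 of the 1000 highest-scoring H3K9me3 peaks in EA-HFSCs. These values come from the lists that chose the sites, and a wider peak meets other peaks more easily.

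The 3-mark sites were mostly patches within wide H3K27me3 domains. Of the 2019 sites, 1777 (88.0%) lay wholly inside H3K27me3 peaks, 696 (34.5%) wholly inside H3K4me3 peaks and 543 (26.9%) inside both. At least 1 base lay under all 3 marks in 2015 sites, with a median of 933 bp. The sites fell on 1452 H3K27me3 peaks (5.69% of that list), whose median width was 5173.5 bp, against 1328 bp for the other H3K27me3 peaks. They fell on 1513 H3K4me3 peaks (7.04% of that list), which were no wider than others (2172 against 2292 bp) but scored lower, with a median of 304 against 672. A total of 444 H3K27me3 peaks held 2 or more sites, so neighbouring sites often share a domain and are not independent. The domain with the most, 12 sites, spanned 65837 bp of the Hoxd cluster (chr2:74543317-74609153). Next came the domain at Sox11 with 6 sites, and those nearest to Nrn1, Mef2c, Lhx6, Meis2 and Gata2 had 5 each. Across the sites, the H3K9me3 score went with the width of the widest H3K27me3 peak (Spearman's rho 0.54, n = 2019 sites of the same libraries) and hardly with the H3K4me3 score (rho −0.10). The widths and scores in this paragraph come from the lists that chose the sites. A wide H3K27me3 peak meets other peaks more easily, so its width here is partly set by the rule.

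The longest stretches under all 3 marks lay near Skor1 (7166 bp), a corepressor of neurons, Prdm12 (6703 bp), a regulator of pain-sensing neurons, Gm53 (5933 bp), Sox6 (5728 bp) and Rfx4 (4975 bp), a brain regulator. In LC-HFSCs the Skor1 and Prdm12 sites had no mark, the Gm53 and Sox6 sites H3K4me3 and the Rfx4 site H3K27me3. At the other end, 37 sites shared under 50 bp with 1 of the other marks. The site nearest Enpp2 was just inside the rule, with 3 bp shared. The peaks nearest Ufc1, Gnas and Crhbp were just outside, with gaps of 1, 2 and 3 bp to the missing mark. In all, 49 H3K9me3 peaks with 1 other mark missed the second by under 50 bp, and 774 by under 1000 bp.

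The middle of a site lay in a promoter (from 1000 bp before a start to 100 bp past it) in 511 of 2017 cases (25.3%), in a 5′ UTR in 78, in a 3′ UTR in 54, in another exon in 185, in an intron in 684 (33.9%) and between genes in 505 (25.0%). Promoters and 5′ UTRs together held 29.2% (27.3–31.2%), below the 46.9% of H3K9me3 peaks with H3K4me3 only and above the 3.61% of those with H3K27me3 only. The median distance from the middle to the nearest start of a protein-coding transcript was 1107 bp, and 74.5% of the sites lay within 3000 bp. Peaks with H3K4me3 only lay at a median of 286 bp and those with H3K27me3 only at 20126 bp. The 3-mark sites thus lay further from starts than the H3K4me3 set and much nearer than the H3K27me3 set. CpG ratios followed position, with a median of 0.58 for the sites in promoters and 0.49 for those between genes. The share of H3K9me3 peaks that were 3-mark sites ran from 3.47% on chromosome 17 to 6.38% on chromosome 2 among the autosomes.

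In LC-HFSCs the triple combination was not found at any of the 2019 sites (95% Wilson interval up to 0.190%). No mark at all was left at 750 sites, or 37.1% (35.1–39.3%). H3K4me3 alone was left at 545 (27%), H3K27me3 alone at 451 (22.3%) and both at 266 (13.2%). H3K9me3 was present at 7 sites only, 6 with no other mark and 1 with H3K4me3. The 37.1% with no mark stood among wide differences in the rest of the list. No mark was left in LC-HFSCs at 3.04% of H3K9me3 peaks with H3K4me3 only, 80.0% of those with H3K27me3 only and 96.9% of those with neither.

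**Figure D1:**
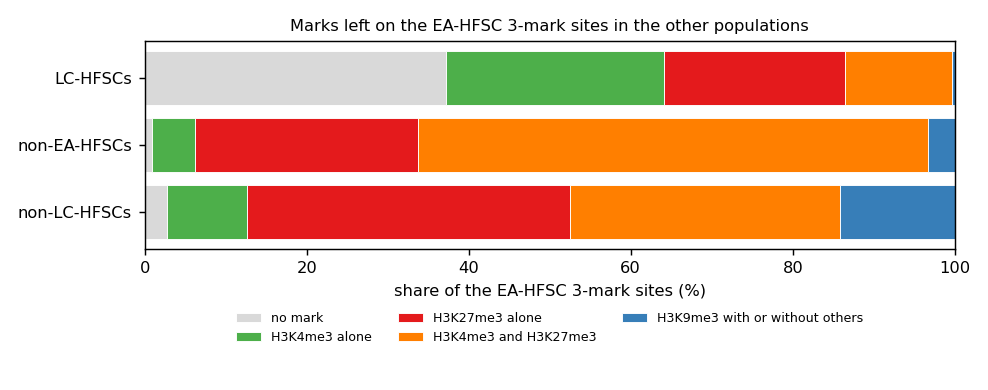
Stacked bars give the share of the 2019 EA-HFSC 3-mark sites (x axis, %) that overlapped each combination of peaks in each of the 3 other populations (y axis). The grey segment with no mark makes up 37.1% in LC-HFSCs, 0.941% in non-EA-HFSCs and 2.72% in non-LC-HFSCs, and the orange segment with H3K4me3 and H3K27me3 is largest in non-EA-HFSCs, at 63.0%.

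In the CD34-negative cells the same places were mostly bivalent or carried H3K27me3. In non-EA-HFSCs, 1272 sites (63.0%, 60.9–65.1%) had H3K4me3 and H3K27me3, 555 (27.5%) H3K27me3 alone, 107 (5.30%) H3K4me3 alone and 37 (1.83%) all 3 marks, and 19 (0.941%) had none. In non-LC-HFSCs, 674 (33.4%, 31.4–35.5%) had both, 803 (39.8%) H3K27me3 alone and 201 (9.96%) H3K4me3 alone. There 130 sites (6.44%, 5.45–7.59%) carried all 3 marks, 143 (7.08%) H3K27me3 with H3K9me3, and 55 (2.72%) none.

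Mark by mark, H3K4me3 overlapped 40.2% of the sites in LC-HFSCs (38.1–42.4%), 70.3% in non-EA-HFSCs and 50.1% in non-LC-HFSCs. Over all 42277 EA-HFSC H3K9me3 peaks these shares were 21.1, 23.4 and 21.9%. H3K27me3 overlapped 35.5% of the sites in LC-HFSCs (33.5–37.6%), 93.4% in non-EA-HFSCs and 86.7% in non-LC-HFSCs, against 6.34, 21.9 and 18.3% of all the peaks. H3K9me3 overlapped 0.347% in LC-HFSCs (0.168–0.714%), 3.27% in non-EA-HFSCs (2.58–4.14%) and 14.2% in non-LC-HFSCs (12.7–15.8%), against 1.79, 8.6 and 9.85% of all the peaks. For H3K4me3 and H3K27me3 the sites thus stood above the whole list in every population. The sites were chosen for both marks in EA-HFSCs, whereas 51.8% of the list had neither there. This order therefore follows from the selection and is not a result. For H3K9me3 the sites stood below the whole list in LC-HFSCs and non-EA-HFSCs and above it in non-LC-HFSCs. So did the peaks with H3K4me3 only (0.108, 0.288 and 15.3%) and those with H3K27me3 only (1.13, 6.95 and 10.7%). The order is thus not particular to the 3-mark sites. The 14.2% in non-LC-HFSCs rests on the 1 bp overlap of wide sites, and H3K9me3 covered the middle of 4.71% of the sites and 50% of the width of 2.72% of them.

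The lists differ in length, and part of the gap between populations went with it. LC-HFSCs had 14718 H3K4me3, 1909 H3K27me3 and 1414 H3K9me3 peaks, the fewest for every mark, whereas the other populations had 15273 to 25534 H3K27me3 peaks. With only as many top-scoring peaks taken from each list as the shortest held, H3K27me3 overlapped 35.5% of the sites in LC-HFSCs, 66.6% in non-EA-HFSCs and 59.9% in non-LC-HFSCs. For H3K4me3 the shares were 40.2, 42.5 and 37.1%, so that LC-HFSCs lay between the CD34-negative populations for that mark. For H3K9me3 they were 0.347, 0.594 and 3.02%. By the account of the study more reads were used in LC-HFSCs than in EA-HFSCs, and the lists themselves hold no read totals.

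The shares were set beside those of the H3K9me3 peaks with only 1 other mark. These sets were not matched for the score or width of their peaks. Within the 3-mark sites, H3K4me3 in LC-HFSCs ran from 5.75% in the lowest to 84.2% in the highest quartile of EA-HFSC H3K4me3 score. Among H3K9me3 peaks with H3K4me3 but no H3K27me3, H3K4me3 was present in LC-HFSCs at 96.8% (96.4–97.2%), far above the 40.2% of the 3-mark sites. Among those with H3K27me3 but no H3K4me3, H3K27me3 was present in LC-HFSCs at 19% (18.2–19.7%), below the 35.5% of the 3-mark sites. The same order held for H3K27me3 in non-EA-HFSCs (59.8 against 93.4%) and non-LC-HFSCs (51.9 against 86.7%). Counted over the 3 other populations, 695 sites had H3K27me3 in all of them and 104 in none, 645 had H3K4me3 in all and 506 in none, and 1718 had H3K9me3 in none. The most common course, at 261 sites (12.9%), was H3K4me3 alone in LC-HFSCs and both H3K4me3 and H3K27me3 in the CD34-negative cells of either stage. Next came 235 sites (11.6%) with no mark in LC-HFSCs and H3K27me3 alone in the others, and 162 (8.02%) with H3K27me3 alone in all 3.

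**Figure D2:**
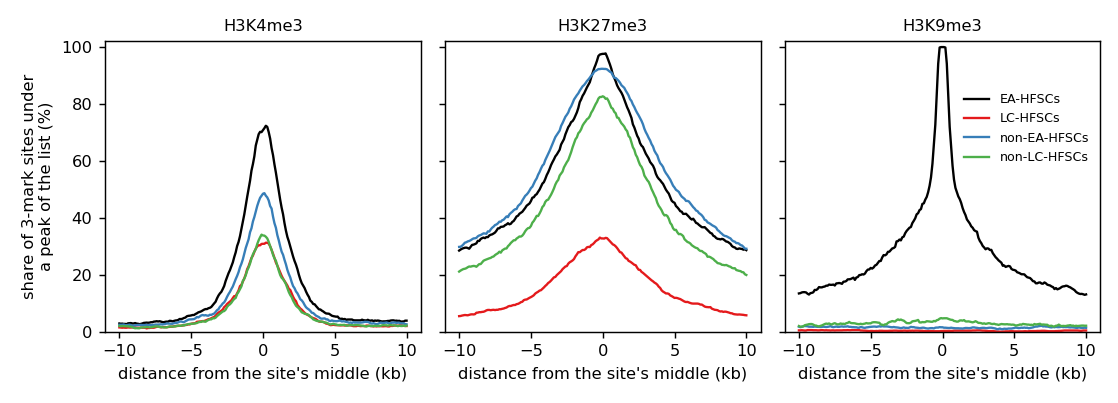
Lines give the share of the 2019 sites (y axis, %) whose position at each distance from the site's middle (x axis, kb) lies under a peak of the 4 populations, in 1 panel per mark. H3K27me3 at the middle is at 97.6% in EA-HFSCs, 92.4% in non-EA-HFSCs, 82.7% in non-LC-HFSCs and 32.8% in LC-HFSCs, and the H3K9me3 lines of the 3 other populations stay near the bottom of the panel.

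H3K4me3 and H3K27me3 were centred on the sites in each population. H3K4me3 covered 30.9% of the middles in LC-HFSCs, 48.5% in non-EA-HFSCs and 33.8% in non-LC-HFSCs, and 2.82, 4.36 and 2.77% of positions 5000 bp to the left. H3K27me3 was broader: it covered 50.5 and 50.7% of positions 5000 bp to either side in non-EA-HFSCs and 12.2 and 11.9% in LC-HFSCs. H3K9me3 in LC-HFSCs covered 0.248% of the middles and 0.495 and 0.446% of positions 10000 bp away, so that it was not centred on the sites there.

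Which mark was left in LC-HFSCs went with the strength of the EA-HFSC peaks. Sites left with H3K27me3 alone lay on EA-HFSC H3K27me3 peaks with a median width of 9088 bp, and those left with H3K4me3 alone on peaks of 3708 bp. The EA-HFSC H3K4me3 scores had the opposite order, with medians of 198 and 810. Sites with no mark left had a median width of 5947.5 bp and a median H3K4me3 score of 207, and sites with both left 7712.5 bp and 738. From the narrowest to the widest quartile of H3K27me3 peaks, H3K27me3 was present in LC-HFSCs at 11.3, 32.5, 50.6 and 47.6% of the sites, and H3K4me3 at 55.2, 40.6, 34.3 and 30.8%. From the lowest to the highest quartile of H3K4me3 score, H3K4me3 was present at 5.75, 18.3, 52.6 and 84.2%. In the lowest quartile H3K4me3 was present at 46.4% of the sites in non-EA-HFSCs and 24.2% in non-LC-HFSCs. By position, H3K4me3 was present in LC-HFSCs at 45.4% of the sites in promoters (41.1–49.7%) and 32.3% of those between genes (28.3–36.5%), while H3K27me3 was present at 31.1% (27.3–35.3%) and 40% (35.8–44.3%). No mark was left at 36.2 and 39.4%, whose intervals overlapped. The CpG ratio was 0.60 at sites left with H3K4me3 alone, 0.59 with both, 0.52 with H3K27me3 alone and 0.50 with none.

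**Figure D3:**
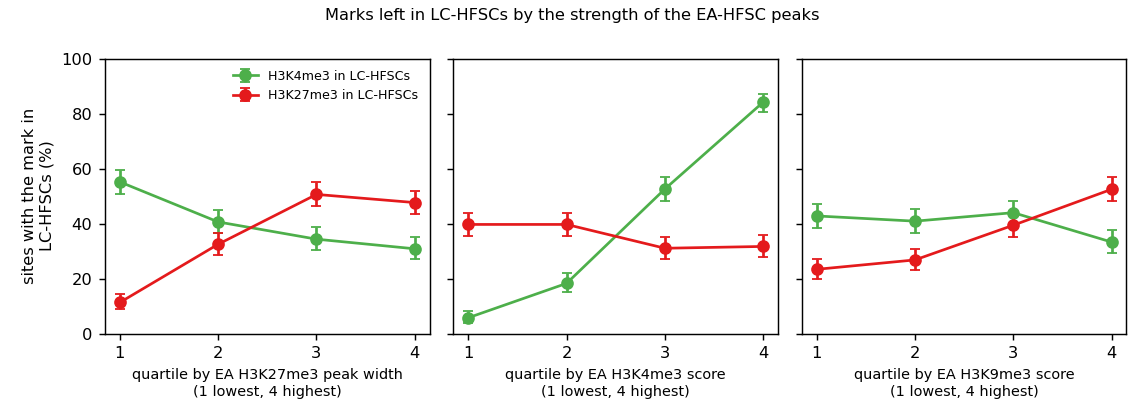
Points give the share of sites with H3K4me3 (green) or H3K27me3 (red) in LC-HFSCs (y axis, %) with 95% Wilson intervals, by quartile of EA-HFSC H3K27me3 peak width, H3K4me3 score and H3K9me3 score (x axes, 504 to 506 sites each). H3K4me3 goes from 5.75 to 84.2% over the quartiles of its own EA-HFSC score, and H3K27me3 from 23.4 to 52.5% over those of the H3K9me3 score.

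Bivalent domains with and without H3K9me3 were set side by side. Of the 2283 EA-HFSC H3K27me3 peaks on an H3K4me3 peak, 180 met an H3K9me3 peak that was not a 3-mark site and are left out here. Of the others, 1441 held a 3-mark site and 662 met no H3K9me3 peak. H3K27me3 was present in LC-HFSCs at 40.7% of the first (38.2–43.2%) and 6.95% of the second (5.25–9.14%). The domains with a 3-mark site were wider. The 2 kinds were compared by width only and not matched for H3K27me3 score. Over the whole H3K27me3 list, the median score was 525 for peaks with a 3-mark site and 66.1 for the others. The gap differed between width classes. The shares were 4.72 against 3.41% under 1500 bp, 10.2 against 5.19% from 1500 to 3000 bp, and 32.5 (28.3–36.9%) against 13.4% (9.08–19.3%) from 3000 to 6000 bp. At 6000 bp and above they were 65.1% of 625 domains (61.3–68.8%) against 13.3% (3.74–37.9%), the latter 2 of only 15 domains. The intervals overlapped in both narrow classes and did not in the wider ones. Overlap of intervals, here and below, is a description and not a test, because they hold only counting error within the same pooled libraries. For H3K4me3 in LC-HFSCs the shares over all widths were 45.6% (43.0–48.2%) and 39.9% (36.2–43.7%), whose intervals overlapped. Within width classes they were 56.6% (47.1–65.6%) against 39% (32.6–45.8%) under 1500 bp and 56.7% (50.5–62.6%) against 41.1% (35.4–47.1%) from 1500 to 3000 bp, with no overlap of the intervals. From 3000 to 6000 bp they were 46.9 against 40.7%, and above that 38.2 against 20% (3 of 15), with overlapping intervals.

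The sites were placed at genes through protein-coding gene starts of the mm9 annotation. A total of 1090 of 22367 genes had a 3-mark site within 3000 bp of the start, which is the background of 4.87% for the lists below, and 382 of them had 2 or more. In EA-HFSCs, where the sites were chosen, H3K4me3 was at the start of 98.2% of the 1090 and 60.4% of all genes. In LC-HFSCs it was at 546 of the 1090 (50.1%) and at 53.9% of all genes. H3K27me3 was at 429 (39.4%), against 3.39% of all genes, and H3K9me3 at 2 (0.183%), against 0.295% of all genes. No mark was left in LC-HFSCs at 302 (27.7%), and 43.5% of all genes had none there. In EA-HFSCs, however, 32.8% of all genes had no mark already, against 0 of the 1090. In non-EA-HFSCs the shares were 83.9% for H3K4me3, 92.3% for H3K27me3 and 5.41% for H3K9me3, against 59.6, 15.6 and 2.8% of all genes. There 802 of the 1090 (73.6%) were bivalent without H3K9me3, against 9.06% of all genes. In non-LC-HFSCs the shares of the 3 marks were 65.6, 88.4 and 23.9%, against 56.6, 11.9 and 11.6% of all genes. All 3 marks were at 136 (12.5%) there, against 0.993% of all genes. The 1090 genes were chosen through sites with all 3 marks in EA-HFSCs. In EA-HFSCs H3K27me3 was at 99.9% of the 1090 and 13.0% of all genes, and H3K9me3 at 100 and 45.2%. Where the 1090 stand above all genes in the other populations, this therefore follows in part from the selection and is not a result.

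The 15 sites with the highest H3K9me3 score at gene starts, with 1 gene named for each site, lay at genes for transcription factors. Hmx3 shares the site of Hmx2, and Zic1 that of Zic4. Sim1, a bHLH-PAS factor of the hypothalamus, had the strongest H3K9me3 peak of the whole list (chr10:50611276-50622303, score 2983), inside an H3K27me3 domain of 30912 bp and with an H3K4me3 score of 146. Dlx6, a Distal-less homeobox gene of the face and limbs, followed with a site at chr6:6807436-6817531 (score 2060) and a weak H3K4me3 peak (score 57.1, where the list began at 50). Onecut2, a homeobox factor of liver and neurons, had 3 sites, the strongest with a score of 2007. Tlx3, which specifies sensory neurons, had a score of 1798, and Dbx1, of spinal cord interneurons, 1493. Nkx2-1, the regulator of thyroid, lung and forebrain, had a score of 1450, and Otx1, of the forebrain, 1447.

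The other 8 were Hmx2 (inner ear), Hand2 (heart and limb), Ebf2 (neurons and brown fat), Alx4 (skull and limb), the zinc finger gene Klf14, Sox14 (interneurons), Lhx1 (kidney and head organizer) and Zic4 (cerebellum), with scores from 1405 to 1224. At the starts of these 15 genes, LC-HFSCs had H3K27me3 at 9, H3K4me3 at 5 and H3K9me3 at 0. Sim1, Dlx6, Tlx3 and Sox14 had no mark within 3000 bp there. The CD34-negative cells of both stages had H3K27me3 at 15 of 15, and H3K4me3 at 13 in the early and 9 in the late stage. H3K9me3 was present at 4 of the 15 in non-EA-HFSCs and at 10 in non-LC-HFSCs.

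All 3 marks were found in non-EA-HFSCs at the starts of Tlx3, Dbx1, Klf14, Zic1 and Zic4, the 5 with the highest EA-HFSC score among 42 such genes. Zic1 and Zic4 are neighbours, and both are served by the same site (chr9:91255874-91259909). In non-LC-HFSCs the first 5 of 136 were Sim1, Onecut2, Dbx1, Ebf2 and Klf14. Dbx1 and Klf14 thus had all 3 marks in every population but LC-HFSCs, and H3K4me3 with H3K27me3 in LC-HFSCs. These are marks within 3000 bp of the start, and overlap with the site itself can differ. The Sim1 site overlapped all 3 marks in non-EA-HFSCs. The strongest Onecut2 site overlapped only H3K4me3 and H3K27me3 in non-LC-HFSCs.

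**Figure D4:**
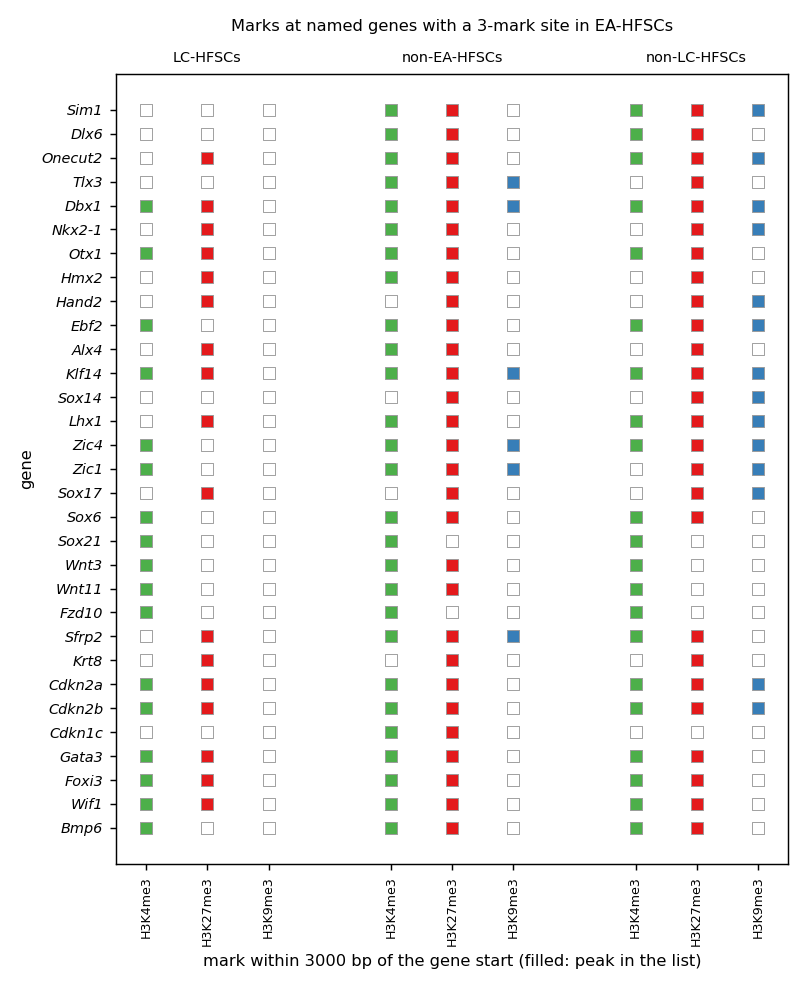
Squares show for 31 named genes with a 3-mark site in EA-HFSCs (y axis) whether a peak of each mark lay within 3000 bp of the gene start (x axis, filled for a peak) in the 3 other populations. H3K27me3 is filled at 17 genes in LC-HFSCs, 29 in non-EA-HFSCs and 26 in non-LC-HFSCs, and H3K9me3 at 0, 6 and 14.

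Transcription factor families held the sites more often than most other lists. The GATA, Zic, Gli and Sall zinc finger factors had a site at 15 of 21 genes (71.4%, 50.0–86.2%), Sox factors at 9 of 18 (50%), Hox genes at 17 of 39 (43.6%), other homeobox and Pax genes at 83 of 195 (42.6%, 35.8–49.6%), T-box genes at 7 of 17 (41.2%), bHLH lineage factors at 24 of 59 (40.7%) and forkhead genes at 14 of 42 (33.3%). The background was 4.87%, and the interval of each of these lists lay above it. By contrast, zinc finger genes named Zfp had a site at 11 of 361 (3.05%, 1.71–5.37%), near the background, and the 48 constantly used genes had none (interval up to 7.41%).

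Among the 83 homeobox and Pax genes, H3K27me3 was at 47 and H3K4me3 at 29 in LC-HFSCs, and 22 had no mark. In both CD34-negative populations 81 of the 83 had H3K27me3. For this list and those below, the shares over all 1090 genes with a site serve as the measure. In LC-HFSCs these were 39.4% for H3K27me3, 50.1% for H3K4me3 and 27.7% for no mark. H3K27me3 was at 92.3% of the 1090 in non-EA-HFSCs and 88.4% in non-LC-HFSCs. The 24 bHLH genes had a like pattern, with H3K27me3 at 14 and H3K4me3 at 8 in LC-HFSCs, led by Sim1, Hand2, Tal1 (blood and endothelium) and Bhlhe22 (neurons). Of the 7 T-box genes, H3K27me3 was at 6 in LC-HFSCs, and Tbx3, a factor of limb and mammary gland, had H3K4me3 as well. The strongest forkhead sites were at Foxl2 (ovary), Foxb2, Foxd2 and Foxa1 (liver and lung), and H3K27me3 was at 10 of the 14 forkhead genes in LC-HFSCs. Of the 9 Sox genes, 2 had H3K27me3 and 5 had H3K4me3 in LC-HFSCs. At Sox17, of endoderm and vessels, H3K27me3 was left in LC-HFSCs, whereas at Sox6 and Sox21 H3K4me3 was.

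The Hox genes, which set position along the body axis, lay in long shared domains. Hoxc10 and Hoxc9 shared a site of 12891 bp (chr15:102798885-102811775, score 1206), and Hoxc12 and Hoxd11 followed with scores of 799 and 778. In non-EA-HFSCs, where 1006 of the 1090 genes had H3K27me3, it was at 9 of the 17 Hox genes. Of the 12 genes with no mark within 3000 bp of the start in non-EA-HFSCs, 5 were Hoxc10, Hoxc12, Hoxd10, Hoxd11 and Hoxd13, all of the 5′ ends of their clusters. At Hoxd10, Hoxd11 and Hoxd13, non-LC-HFSCs had H3K27me3 and H3K9me3, and at Hoxc10 and Hoxc12 H3K9me3 alone. In LC-HFSCs, 8 of the 17 Hox genes had no mark. In EA-HFSCs themselves the H3K4me3 peak of the site lay outside the 3000 bp window at Hoxa9, Hoxa10, Hoxa11, Hoxc10, Hoxd4, Hoxd10, Hoxd12 and Hoxd13. All of these but Hoxd12 and Hoxd13 were among the 8 without a mark in LC-HFSCs. Over the 1090 genes with a site, 1070 (98.2%) had H3K4me3 in the window in EA-HFSCs. The genes of this group other than Hoxc10 are named after their values were seen, and genes within 1 cluster share domains.

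Signalling genes had fewer sites. Wnt ligands, receptors and modulators had a site at 12 of 60 genes (20%, 11.8–31.8%), led by the ligands Wnt3 and Wnt11, the receptor Fzd10 and the antagonist Sfrp2. In LC-HFSCs, H3K4me3 was at 8 of the 12 and H3K27me3 at 2. Wnt3, Wnt11 and Fzd10 had H3K4me3 alone in LC-HFSCs and in non-LC-HFSCs, whereas Sfrp2 had H3K27me3 alone in LC-HFSCs. BMP, GDF and TGF-beta genes with their antagonists had a site at 15 of 67 (22.4%), with Gdf6, Gdf7, Bmp8b and Fstl4 in front, and 6 of the 15 had no mark in LC-HFSCs. FGF genes had sites at 6 of 27 (22.2%), and Fgf5, the signal that ends hair growth, had H3K27me3 alone in LC-HFSCs and was bivalent in both CD34-negative populations. Of the 26 hedgehog and Notch genes only Shh, Dll4 and Dlk1 had a site (11.5%, 4.00–29%), and Shh, the ligand of hair follicle growth, was bivalent in each of the 3 other populations. Its site was weak, with an H3K9me3 score of 43.3.

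Guidance and neuronal genes had sites at similar shares, with ephrins, semaphorins, netrins and slits at 16 of 69 (23.2%) and neuronal channels, receptors and transporters at 48 of 227 (21.1%, 16.3–26.9%). All 16 guidance genes had H3K27me3 in both CD34-negative populations, and 6 had it in LC-HFSCs. Of the 48 neuronal genes, 47 had H3K27me3 in both CD34-negative populations, 18 had it in LC-HFSCs and 17 had no mark there. Gad2, which makes GABA, Slc32a1, which loads it into vesicles, and Grid1, a glutamate receptor, had H3K27me3 alone in LC-HFSCs, whereas the potassium channel gene Kcnk13 had H3K4me3 as well. Protocadherins and cadherins had a site at 9 of 62 (14.5%) and collagens at 6 of 43 (14.0%), among them Col2a1, the collagen of cartilage.

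The lists of hair follicle and cell cycle genes held the sites at differing shares. Of the 32 bulge stem cell factors, Gata3, Foxi3, Wif1 and Bmp6 had a site (12.5%, 4.97–28.1%). All 4 had H3K4me3 in LC-HFSCs, and Gata3 (inner root sheath), Foxi3 and Wif1, a Wnt inhibitor, had H3K27me3 there too. Their H3K9me3 scores were 360, 164, 59.2 and 43.9. Of the 46 keratins only Krt8, of simple epithelia, had a site (score 219), with H3K27me3 alone in each of the other populations. Among the cell cycle inhibitors, Cdkn2a, Cdkn2b and Cdkn1c of 7 genes had a site (42.9%, 15.8–75%). Cdkn2a and Cdkn2b were bivalent in LC-HFSCs and non-EA-HFSCs and had all 3 marks in non-LC-HFSCs. Cdkn1c had no mark in either LC population. Cell cycle and replication genes had a site at 2 of 52 (3.85%, 1.06–13.0%), Ccna1, a germ line cyclin, and E2f7, which is near the background.

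**Figure D5:**
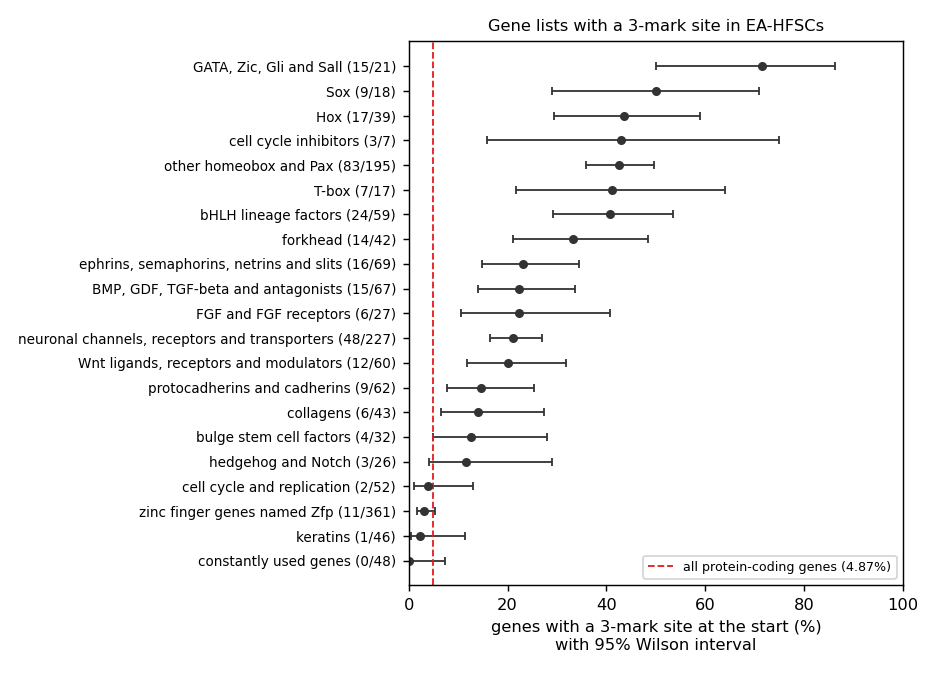
Points give the share of each gene list with a 3-mark site within 3000 bp of the gene start (x axis, %) with 95% Wilson intervals, and the dashed line marks the 4.87% of all protein-coding genes. GATA, Zic, Gli and Sall factors are highest at 71.4%, and constantly used genes are at 0 of 48.

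The 7 sites with H3K9me3 in LC-HFSCs are named because they were few. A run of 5 lay in the gamma protocadherin cluster nearest the start of Pcdhgc5 on chromosome 18, from chr18:37895787-37896489 to chr18:37920811-37921850. These genes for cell surface adhesion molecules are chosen cell by cell from clustered promoters. The 5 sites were small, 703 to 1040 bp with scores of 61.2 to 166, and H3K9me3 was the single mark left there in LC-HFSCs. All 5 also had H3K9me3 in non-EA-HFSCs and 4 of them in non-LC-HFSCs. The other 2 lay 11797 bp from the start of Zfp810 (chr9:22082737-22083638), with H3K9me3 alone in all 3 other populations, and 12925 bp from the start of Onecut1 (chr9:74693491-74700115, score 1233), with H3K4me3 beside H3K9me3 in LC-HFSCs. The gene copies of the protocadherin cluster are alike, and the study counted uniquely mapped reads.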

How the data were processed

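ChIP-seq peak lists for 3 marks in 4 sorted populations (12 lists) were used. The authors digested chromatin with MNase, cut reads to 1 length, mapped them to mm9 (Bowtie2), pooled replicates and called peaks with MACS against IgG. Each deposited peak carries a score of the authors, 10 times the p-value's negative log10. The lists start at 50 for H3K4me3 and 40 for H3K27me3 and H3K9me3. The study used uniquely mapped reads and filtered low-quality alignments. The lists hold no read totals, so the exact depth of each is unknown here. The 4 IgG samples were not used here.

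Overlaps (at least 1 bp), gene starts (3000 bp to either side, GENCODE vM1, 22367 protein-coding genes) and CpG ratios (mm9 sequence) were computed in Python 3.11.15 with NumPy 2.4.6 and SciPy 1.17.1. The overlap code was tested on simulated peaks. All placed peaks lay within the mm9 chromosomes. Shares carry 95% Wilson intervals. With 1 pooled list per population and mark, no test was made. Genes were named by rule: the 15 highest H3K9me3 scores at gene starts (1 gene per site), the first 5 that had all 3 marks in another population, up to 4 per list, the most shared bases and the sites next to the limits of the rule. Sequence was shown from chromosomes other than 18. Some items that the rules pick are not reported here. Members, gene lists and rules were chosen with earlier results of these data known.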

Additional observations from a re-analysis of the deposited data

How the results depend on the processing

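Of 88 recomputed values, 41 stayed within the 95% interval of the main value and 47 did not. For counts the limit was 1.5 times instead, and for the CpG ratio it was the quartiles of the sites. The number of sites was 1336 when each other mark had to cover 50% of the H3K9me3 peak and 829 at a score of 100 or more in every list, where 562 genes had a site. A promoter of 2000 bp upstream and 500 bp downstream held 43.9% of the sites.

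The shares that left their interval were as follows. With 50% of the site covered they were H3K4me3 30.5% in LC-HFSCs, 46.2% in non-EA-HFSCs, 31.2% in non-LC-HFSCs, H3K27me3 33% in LC-HFSCs, 83.1% in non-LC-HFSCs, H3K9me3 1.09% in non-EA-HFSCs, 2.72% in non-LC-HFSCs, no mark 43.8% in LC-HFSCs, 1.88% in non-EA-HFSCs, 5.25% in non-LC-HFSCs. For the middle base of the site they were H3K4me3 30.9% in LC-HFSCs, 48.5% in non-EA-HFSCs, 33.8% in non-LC-HFSCs, H3K27me3 32.8% in LC-HFSCs, 82.7% in non-LC-HFSCs, H3K9me3 1.58% in non-EA-HFSCs, 4.71% in non-LC-HFSCs, no mark 43.6% in LC-HFSCs, 1.88% in non-EA-HFSCs, 5.15% in non-LC-HFSCs. At a score of 50 or more in every list they were H3K27me3 33.1% in LC-HFSCs, H3K9me3 10.4% in non-LC-HFSCs. At a score of 100 or more they were H3K4me3 25.8% in LC-HFSCs, 68% in non-EA-HFSCs, 46.7% in non-LC-HFSCs, H3K27me3 20.9% in LC-HFSCs, 90.2% in non-LC-HFSCs, H3K9me3 0% in LC-HFSCs, 1.33% in non-EA-HFSCs, 3.74% in non-LC-HFSCs, no mark 56.9% in LC-HFSCs, 0.603% in non-EA-HFSCs, 1.69% in non-LC-HFSCs. With list length set equal by score they were H3K4me3 42.5% in non-EA-HFSCs, 37.1% in non-LC-HFSCs, H3K27me3 66.6% in non-EA-HFSCs, 59.9% in non-LC-HFSCs, H3K9me3 0.594% in non-EA-HFSCs, 3.02% in non-LC-HFSCs. With 1 site for each of 1429 groups that share H3K27me3 peaks, a setting chosen after seeing the data, they were H3K4me3 73.8% in non-EA-HFSCs, 52.9% in non-LC-HFSCs, H3K27me3 33.2% in LC-HFSCs, 84.7% in non-LC-HFSCs. The cause of these shifts was not tested. H3K27me3 was less frequent in LC-HFSCs than in both CD34-negative populations in every setting. For H3K4me3, LC-HFSCs lay above non-LC-HFSCs with equal numbers of peaks and below them in the other settings.

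No paired analysis was possible because replicates were pooled before peak calling. Intervals cover counting error only, and neighbouring sites share domains. H3K27me3 and H3K9me3 calling was not saturated in these libraries by the account of the study, so an absent peak is not an absent mark.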
